A study of Mus musculus with 14 samples.

Results

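Expression of 9 genes of the transforming growth factor beta (Tgf-beta) system was examined in mouse hind limb skeletal muscle: the ligands Tgfb1, Tgfb2 and Tgfb3, the receptors Tgfbr1, Tgfbr2 and Tgfbr3, the latency protein Ltbp4, and the matrix genes Postn and Lox. The genes were chosen by name, with earlier results of these data known, and all 9 were found in both deposited tables of 49585 genes. RNA-seq had been carried out on muscle of wild-type (WT) mice and of mice lacking Myf6 (KO), either without injury or injured, with 3 libraries in each of the 4 groups. The strain, age, knockout allele, kind of injury and time after it are not given in the sources used here. Myf6, also called MRF4, is a myogenic transcription factor, and its binding had been mapped by ChIP-seq with a Flag antibody in primary myotubes grown from adult satellite cells, with 1 ChIP library and 1 control.

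Tgf-beta ligands are secreted in a latent form, held in the matrix by latent Tgf-beta binding proteins such as Ltbp4, and released by integrins, proteases or thrombospondins. An active ligand binds the type II receptor Tgfbr2, which recruits and activates the type I receptor Tgfbr1, and the type I receptor phosphorylates Smad2 and Smad3, while Tgfbr3 (betaglycan) presents the ligand. In skeletal muscle the pathway is known for restraining myoblast differentiation and for driving matrix production by fibro-adipogenic progenitors. Postn (periostin, a matricellular protein) and Lox (lysyl oxidase, the collagen and elastin cross-linking enzyme) are matrix genes that this pathway is known to induce.

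Values are in RPM, reads scaled to 1000000 reads assigned to genes in each library, which are not divided by gene length, so levels were compared between libraries and not between genes. Depth ranged from 1880087 reads in uninjured WT replicate 2 to 49392472 reads in injured KO replicate 3, and 3 reads correspond to 1.60 RPM in the first and 0.0607 RPM in the second. Myf6 itself was at 25 to 121 RPM in the 6 WT libraries and at 1.86 to 3.46 RPM in the 6 KO libraries. The 9 muscle fibre markers summed to at least 110108 RPM in every library, which fits the labelled tissue. Injured KO replicate 2 stood apart from the other injured KO libraries: mitochondrial genes took 23.2% of its reads, against 4.95% and 4.30%, and Malat1, a nuclear non-coding RNA, was at 288 RPM, against 80.4 and 73.4 RPM. In most KO libraries both measures were lower than in WT, although only Malat1 in uninjured muscle had no overlap between the genotypes. Malat1 was at 213 to 284 RPM in uninjured WT and 81.1 to 106 RPM in uninjured KO, and at 249.2 to 494 RPM in injured WT, a range that includes injured KO replicate 2. The mitochondrial share was 13.8 to 22.3% in uninjured WT, 3.63 to 15.3% in uninjured KO and 8.35 to 14.8% in injured WT. The part of either measure in the levels of the 9 genes was not tested. Nothing in the labels says that the libraries of a group came from separate animals, so p-values measure the spread between these libraries. Each library also carries a number, and the same 3 numbers recur in the uninjured and the injured group of a genotype. The number is followed by L in every uninjured and by R in every injured library. What the letters stand for is not stated, and a difference between L and R cannot be told apart from injury. If a number names an animal, which the labels do not state, both tables describe the same mice.

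Among the 9 genes, only Tgfb1 separated the genotypes in both tables on the deposited scale, with every KO library above every WT library, an order found for 2.13% of all genes tested in both tables. The upstream sequence of Tgfb1 is shown beside that of Tgfb2, the gene with a Flag-Myf6 peak nearest to a listed start. Each is the run of 250 bases before the start, 5′ to 3′, from RefSeq (build GRCm38.p6). Capitals mark an E-box, the general motif CANNTG, whatever its 2 middle bases. The Tgfb1 run is chr7:25686752-25687001 on the plus strand and the Tgfb2 run is chr1:186705990-186706239 on the minus strand.
Tgfb1: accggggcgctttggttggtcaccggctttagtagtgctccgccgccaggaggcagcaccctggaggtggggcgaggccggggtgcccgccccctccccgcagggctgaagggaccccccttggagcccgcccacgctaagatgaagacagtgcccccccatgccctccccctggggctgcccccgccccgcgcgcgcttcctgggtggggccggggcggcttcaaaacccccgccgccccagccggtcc
Tgfb2: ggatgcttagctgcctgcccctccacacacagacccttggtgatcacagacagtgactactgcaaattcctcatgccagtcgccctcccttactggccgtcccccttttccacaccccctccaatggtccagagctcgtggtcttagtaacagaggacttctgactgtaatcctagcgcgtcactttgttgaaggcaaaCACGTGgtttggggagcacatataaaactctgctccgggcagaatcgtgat
The Tgfb2 run held 1 E-box, CACGTG, which starts 51 bases before the transcription start, and the Tgfb1 run, at 75.2% G and C, held none. The E-box form CAGCTG, searched separately, was absent from both runs. Whether Myf6 binds the CACGTG site was not tested. The motif CANNTG reads the same on both strands as a pattern and occurred in 66.2% of 32851 upstream runs of this length, so its presence or absence is a description only. The Smad motif CAGAC, searched on both strands, occurred 2 times in the Tgfb2 run, not in the Tgfb1 run, and in 42.2% of all runs.

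Tgfb1 (ENSMUSG00000002603.15), the ligand most studied in fibrosis, was higher in every uninjured KO library than in any uninjured WT library, yet the difference did not pass the test across all genes. The WT libraries gave 3.09, 1.06 and 3.20 RPM, and the KO libraries 8.52, 6.06 and 7.15 RPM. The 3 KO values lie above all WT values, with no overlap. The lowest WT value rests on 2 reads of the smallest library, with an exact Poisson interval of 0.129 to 3.84 RPM that covers counting error only. Its upper bound lies below the lower bound of 4.78 RPM for the lowest KO library. Mean levels were 7.25 ± 1.23 RPM in KO and 2.45 ± 1.201 RPM in WT (SD, n = 3 each), a ratio of 2.96. On the log2(RPM + 1) scale the change was 1.32 (SE 0.40, 95% interval 0.41 to 2.23), with an unadjusted p of 0.00948 and a limma adjusted p of 0.2013. This estimate was above those of 99.1% of the 12460 genes tested. Without uninjured WT replicate 2 the change was 0.98 (limma adjusted p 0.381). DESeq2 on reads recovered from the RPM values gave a change of 1.67 with an adjusted p of 0.0240, below the threshold of 0.05, and the 18 alternatives of this comparison spanned adjusted p values of 0.0240 to 0.638. The authors' deposited table lists a log2 change of 1.67 with a q-value of 0.101.

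In injured muscle Tgfb1 showed the same order. Injured WT libraries gave 4.35, 3.63 and 2.79 RPM and injured KO libraries 7.602, 5.26 and 8.38 RPM, again without overlap. The counting intervals of the nearest libraries did overlap: 3.30 to 5.62 RPM for WT replicate 1 and 4.25 to 6.43 RPM for KO replicate 2. The means were 7.08 ± 1.63 RPM in KO and 3.59 ± 0.779 RPM in WT (SD, n = 3 each), a ratio of 1.97. The log2 change was 0.81 (SE 0.24, 95% interval 0.24 to 1.37), with an unadjusted p of 0.0117 and a limma adjusted p of 0.333. Without injured KO replicate 2 it was 0.98 with a limma adjusted p of 0.0231. The adjusted p spanned 0.0231 to 0.962 over the 18 alternatives, the highest with a block on replicate number, which no label ties between WT and KO. In the authors' deposited table the log2 change is 1.01 with a q-value of 0.382.

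All KO libraries above all WT libraries was found for 1 of the 9 genes in each table, against 6.2% of all genes tested in uninjured and 8.29% in injured muscle, and for the same gene in both tables, against 2.13% of the 12214 genes tested in both. The exact permutation p of 3 against 3 libraries was 0.1 for Tgfb1 in each table, the smallest that the design allows. Other scalings kept Tgfb1 separated in both tables and added genes: Tgfb3 and Ltbp4 in uninjured muscle under upper quartile or TMM scaling, and Tgfb3 and Postn in injured muscle when reads on mitochondrial genes were left out of the total. Under that last scaling Tgfbr3 was lower in every KO than in every WT uninjured library. The shares of all genes separated under these other scalings were not counted, so the added genes have no background beside them. The annotation has no other gene overlapping Tgfb1, Tgfb3 or Lox, whereas non-coding genes or a pseudogene overlap the other 6, whose values are less certain because the use of strand in counting is not stated.

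**Figure D1:**
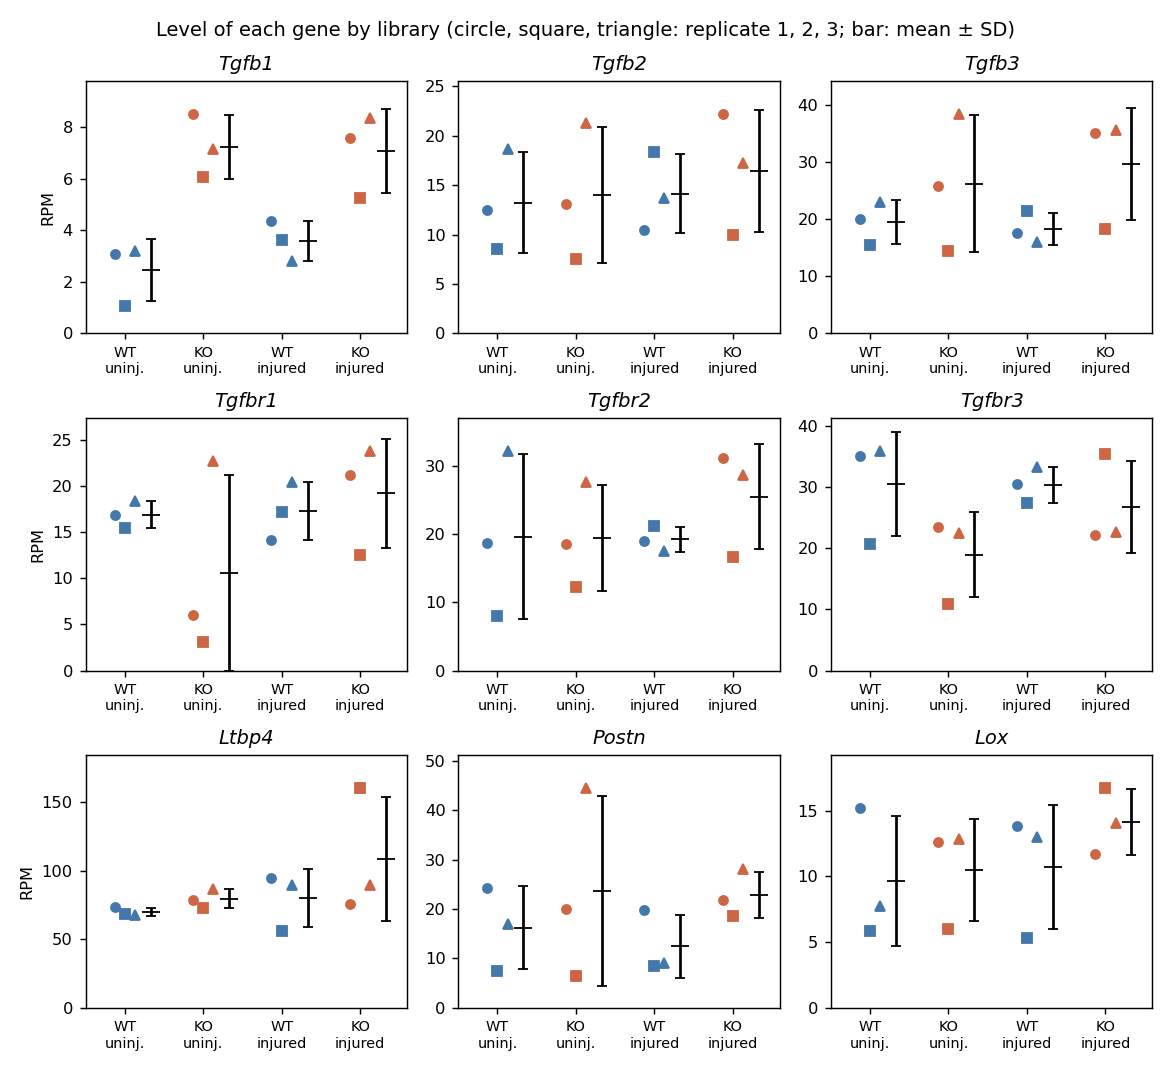
Level of each of the 9 genes in RPM (vertical axes, starting at 0) in the 4 groups (horizontal axes), with 1 point per library, marked by replicate number, and a bar for the mean ± SD of 3 libraries. Tgfb1 is the gene whose KO points lie above all WT points in both tables, while Tgfbr1 in uninjured KO is split into 2 low libraries and 1 high library.

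The other ligands overlapped between genotypes. Tgfb2 (ENSMUSG00000039239.14), a ligand that needs betaglycan for strong receptor binding, measured 12.5, 8.51 and 18.7 RPM in the uninjured WT libraries and 13.1, 7.56 and 21.3 RPM in the uninjured KO libraries. Injured WT libraries had 10.4, 18.3 and 13.7 RPM and injured KO libraries 22.2, 9.90 and 17.3 RPM. In both tables the KO values spanned the WT values. The log2 changes were 0.03 (95% interval -0.96 to 1.02, limma adjusted p 0.987) and 0.17 (95% interval -0.61 to 0.95, limma adjusted p 0.897), intervals that leave room for a change of almost 1 in either direction.

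Tgfb3 (ENSMUSG00000021253.6), the third ligand, measured 20.05, 15.4 and 22.99 RPM in the uninjured WT libraries and 25.7, 14.5 and 38.4 RPM in the uninjured KO libraries. In the injured libraries the values were 17.5, 21.3 and 16.0 RPM for WT and 34.96, 18.3 and 35.6 RPM for KO. KO replicates 1 and 3 lay above all WT libraries in both tables, and KO replicate 2 lay within or below them. On the log2 scale the changes were 0.32 (SE 0.38, limma adjusted p 0.752) and 0.62 (SE 0.29, limma adjusted p 0.529). Leaving out single libraries moved the first from 0.0067 (without KO replicate 3) to 0.68 (without KO replicate 2). The second ranged from 0.46 to 0.92, and the highest value, without injured KO replicate 2, had a limma adjusted p of 0.0143.

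The share of Tgfb1 among the reads of the 3 ligands does not depend on how a library is scaled. In uninjured WT it was 8.67, 4.26 and 7.12%, a mean of 6.68% ± 2.24 (SD, n = 3), and in uninjured KO 18.0, 21.6 and 10.7%, a mean of 16.8% ± 5.53 (SD, n = 3). The uninjured groups did not overlap, although the lowest WT share, that of replicate 2, rests on 2 Tgfb1 reads. Counting intervals and a background over other genes were not computed for these shares. In injured muscle the groups did overlap, with 13.5, 8.39 and 8.61% in WT and 11.7, 15.7 and 13.7% in KO. These shares were not tested.

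Of the receptors, none passed the test in either table. Tgfbr1 (ENSMUSG00000007613.15), the type I signalling receptor, measured 16.9, 15.4 and 18.3 RPM in the uninjured WT libraries and 5.97, 3.07 and 22.7 RPM in the uninjured KO libraries. KO replicates 1 and 2 thus lay below every WT library and KO replicate 3 above them all, a spread of 10.6 RPM (SD, n = 3) around a mean of 10.6 RPM, against 1.45 RPM (SD, n = 3) around 16.9 RPM in WT. The log2 change was -1.02 (SE 0.58, limma adjusted p 0.460). It was -1.74 without KO replicate 3 (limma adjusted p 0.0758) and -0.47 without KO replicate 2 (limma adjusted p 0.667), so single libraries set its size. Injured WT libraries had 14.2, 17.2 and 20.5 RPM and injured KO libraries 21.2, 12.6 and 23.8 RPM, with overlapping groups and a log2 change of 0.11 (95% interval -0.54 to 0.76, limma adjusted p 0.924).

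Tgfbr2 (ENSMUSG00000032440.13), the ligand-binding type II receptor, measured 18.7, 7.98 and 32.1 RPM in the uninjured WT libraries and 18.5, 12.2 and 27.6 RPM in the uninjured KO libraries. In the injured libraries the values were 18.9, 21.2 and 17.5 RPM for WT and 31.0, 16.7 and 28.6 RPM for KO. The uninjured KO values lie inside the WT range, and in injured muscle KO replicates 1 and 3 lie above it. The log2 changes were 0.11 (SE 0.50, limma adjusted p 0.949) and 0.35 (SE 0.26, limma adjusted p 0.683). With single libraries left out the first ranged from -0.39 (without WT replicate 2) to 0.55 (without WT replicate 3). The second was 0.19 without injured KO replicate 1 and 0.62 without injured KO replicate 2 (limma adjusted p 0.0327).

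Tgfbr3 (ENSMUSG00000029287.14), the co-receptor betaglycan, was the only gene of the 9 with an estimate below 0 in both tables. It measured 35.01, 20.7 and 35.9 RPM in the uninjured WT libraries and 23.4, 10.9 and 22.4 RPM in the uninjured KO libraries. Injured WT libraries had 30.5, 27.3 and 33.2 RPM and injured KO libraries 22.2, 35.4 and 22.7 RPM. WT replicate 2 in the first and KO replicate 2 in the second comparison made the groups overlap. On the log2 scale the changes were -0.69 (SE 0.38, limma adjusted p 0.446) and -0.20 (SE 0.22, limma adjusted p 0.792), and neither passed the test. Leaving out single libraries gave -0.94 (without WT replicate 2) to -0.36 (without KO replicate 2) in uninjured muscle, and -0.42 (without KO replicate 2) to -0.091 (without KO replicate 1) in injured muscle.

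Ltbp4 (ENSMUSG00000040488.17), a latent Tgf-beta binding protein known as a genetic modifier of muscular dystrophy, had the narrowest spread relative to its mean of the 9 genes in uninjured muscle, with an SD of 4.22% of the mean in WT and 8.75% in KO (n = 3 each). In RPM its SD was 2.95 and 6.95, wider than that of Tgfb1. Levels were 73.4, 68.6 and 68.0 RPM for WT and 78.7, 73.0 and 86.8 RPM for KO, where only the lowest KO and the highest WT library overlapped. The log2 change was 0.18 (95% interval -0.35 to 0.71, limma adjusted p 0.782). In the injured libraries the values were 94.4, 56.0 and 89.9 RPM for WT and 76.0, 160.2 and 89.3 RPM for KO. The highest value was that of injured KO replicate 2, and the log2 change was 0.39 (SE 0.34, limma adjusted p 0.727). The change was 0.076 without that library, 0.16 without injured WT replicate 2 and 0.61 without injured KO replicate 1, so its size rests on single libraries.

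Postn (ENSMUSG00000027750.16) varied widely within groups. It measured 24.2, 7.45 and 17.0 RPM in the uninjured WT libraries and 20.1, 6.45 and 44.5 RPM in the uninjured KO libraries, so KO held both the lowest and the highest library. The log2 change was 0.30 (95% interval -1.16 to 1.76, limma adjusted p 0.874), and it was -0.32 without KO replicate 3 and 0.99 without KO replicate 2. Injured WT libraries had 19.9, 8.39 and 9.03 RPM and injured KO libraries 21.9, 18.7 and 28.0 RPM. WT replicate 1 was the only WT library inside the KO range. The log2 change was 0.91 (SE 0.34, 95% interval 0.11 to 1.72), with an unadjusted p of 0.0315 and a limma adjusted p of 0.432, and it was 1.28 without WT replicate 1 (limma adjusted p 0.457).

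Lox (ENSMUSG00000024529.13) measured 15.2, 5.85 and 7.77 RPM in the uninjured WT libraries and 12.6, 5.98 and 12.9 RPM in the uninjured KO libraries. In the injured libraries the values were 13.8, 5.32 and 13.01 RPM for WT and 11.7, 16.7 and 14.1 RPM for KO. The groups overlapped in both tables. The log2 changes were 0.14 (SE 0.44, limma adjusted p 0.915) and 0.46 (SE 0.35, limma adjusted p 0.694). With single libraries left out the first ranged from -0.12 (without WT replicate 2) to 0.50 (without WT replicate 1). The second was 0.060 without injured WT replicate 2 and 0.67 without injured WT replicate 1.

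Across the 9 genes, 0 passed a limma adjusted p of 0.05 in uninjured muscle, where 0.281% of all genes did, and 1 of 9, Tgfb1, had an unadjusted p below 0.05, against 14.2% of all genes. Estimates were above 0 for 7 of 9 genes, against 36.8% of all genes, with a median of 0.14 beside -0.18 for all genes. In injured muscle 0 of 9 passed, against 0.269%, and 2 of 9, Tgfb1 and Postn, had an unadjusted p below 0.05, against 10.3%. Estimates were above 0 for 8 of 9 genes, against 52% of all genes, with a median of 0.39 beside 0.01. The 9 genes were chosen with earlier results of these data known, so these shares and medians are a description only. With edgeR on recovered reads 0 of 9 passed in each table, where 0.441% of all genes passed in uninjured and 0.261% in injured muscle. With DESeq2 1 of 9 passed in uninjured muscle, where 5.32% of all genes passed, and 0 of 9 in injured muscle, where 3.38% did. Without injured KO replicate 2, limma passed 3 of 9 genes in injured muscle (Tgfb1, Tgfb3 and Tgfbr2), where 19% of all genes passed. None of the 9 had a q-value below 0.05 in the authors' deposited tables, where 0.668% of the genes in the uninjured and 0.454% in the injured table did.

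**Figure D2:**
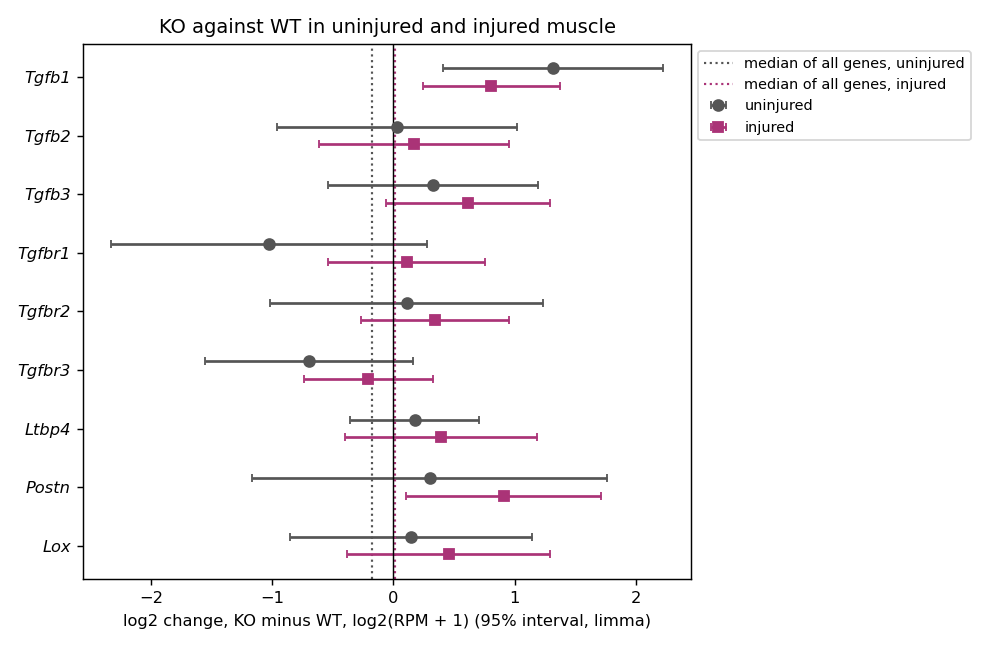
Log2 change, KO minus WT, on the log2(RPM + 1) scale (horizontal axis) for each of the 9 genes (vertical axis) in uninjured (circles) and injured (squares) muscle, with 95% intervals from limma before adjustment and dotted lines at the median of all genes. The intervals of Tgfb1 lie above 0 in both tables and that of Postn in injured muscle, while the other 15 intervals include 0.

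In both uninjured groups 1 library held most of the lowest values of the 9 genes, which was not so in injured WT. Uninjured WT replicate 2, the smallest library, had the lowest value of its group for 8 of the 9 genes, all but Ltbp4. Uninjured KO replicate 2 had the lowest value for all 9, and uninjured KO replicate 3 the highest for 7. In injured KO, replicate 2 was lowest for 6 genes (Tgfb1, Tgfb2, Tgfb3, Tgfbr1, Tgfbr2 and Postn) and highest for the other 3 (Tgfbr3, Ltbp4 and Lox). In injured WT the lowest values were spread over the libraries, with 2 in replicate 1, 4 in replicate 2 and 3 in replicate 3. Mitochondrial genes took 15.3% of the reads in uninjured KO replicate 2, against 6.76% in replicate 1 and 3.63% in replicate 3, and the part of this share in the levels of the 9 genes was not tested.

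Injury itself moved none of the 9 genes past the test. In WT, 0 of 9 passed a limma adjusted p of 0.05, where 0% of all genes did, 0 of 9 had an unadjusted p below 0.05, against 1.29% of all genes, and no gene had all injured above all uninjured libraries, a separation found for 7.48% of all genes. In KO, 0 of 9 passed, again beside 0% of all genes, and 1 of 9, Tgfbr1, had an unadjusted p below 0.05, against 3.51% of all genes, while no gene of the 9 had all injured above all uninjured libraries, against 6.12%. No gene of the 9 had all injured below all uninjured libraries in either genotype. With edgeR and with DESeq2, too, 0 of 9 passed in each genotype, beside 0% of all genes.

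Tgfbr1 differed most from uninjured to injured KO muscle. Between libraries of the same number the KO difference on the log2(RPM + 1) scale was 1.67, 1.74 and 0.06 for replicates 1, 2 and 3, and in WT it was -0.23, 0.15 and 0.15. The fitted KO change was 1.16 (SE 0.50, 95% interval 0.08 to 2.23), with an unadjusted p of 0.0368 and a limma adjusted p of 0.728, beside a median of 0.29 for all genes. In WT it was 0.02 (95% interval -1.05 to 1.097, limma adjusted p 1). Leaving out uninjured KO replicate 3 raised the KO estimate to 1.88 (limma adjusted p 0.126), and leaving out replicate 2 of that group lowered it to 0.60 (limma adjusted p 1). The difference between the genotypes in their injury change was 1.13 (SE 0.70, limma adjusted p 0.9999) and did not pass the test.

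For Tgfb1 the injury change was 0.47 (95% interval -0.24 to 1.18, limma adjusted p 1) in WT and -0.04 (95% interval -0.75 to 0.67, limma adjusted p 0.972) in KO. The difference between them was -0.51 (95% interval -1.52 to 0.50, limma adjusted p 0.9999). By library number, the WT difference of Tgfb1 was 0.39, 1.17 and -0.15, the largest from the library pair that includes the 2-read value. In KO it was -0.15, -0.17 and 0.20. In the interaction 0 of 9 genes passed, beside 0% of all genes, and 0 of 9 had an unadjusted p below 0.05, against 1.56% of all genes.

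**Figure D3:**
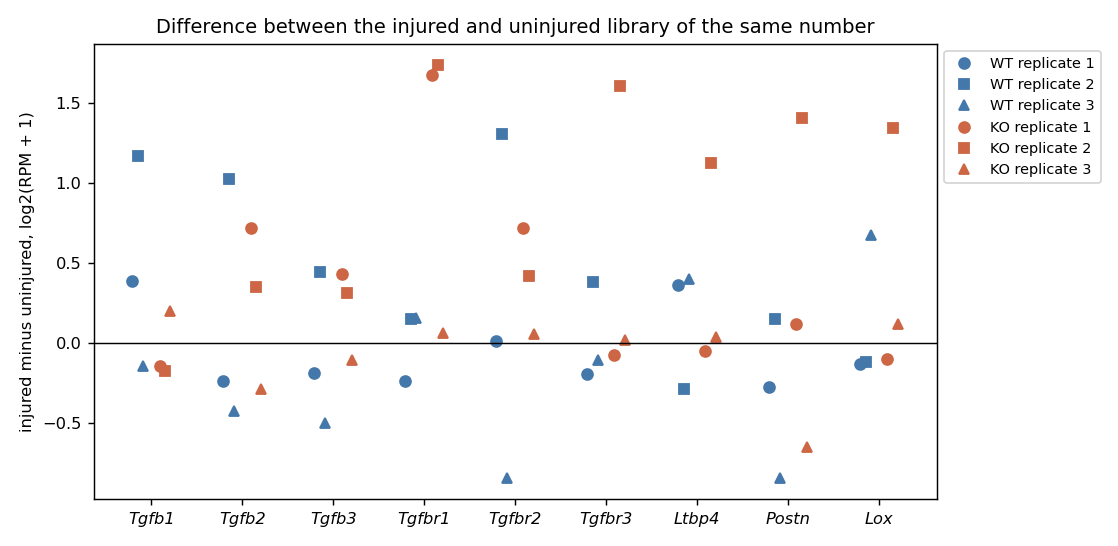
Difference between the injured and the uninjured library of the same number on the log2(RPM + 1) scale (vertical axis) for each of the 9 genes (horizontal axis), with blue for WT, orange for KO and 1 marker shape per replicate number. Tgfbr1 in KO replicates 1 and 2 lies at 1.67 and 1.74, and KO replicate 2 is also the highest point for Tgfbr3, Ltbp4, Postn and Lox.

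Other genes of the pathway were examined in 5 lists with 104 genes, of which 102 passed the filter on low values in every comparison. None passed a limma adjusted p of 0.05 in any of the 5 comparisons. At an unadjusted p below 0.05 there were 8 of 102 in uninjured muscle (7.84%, 1 higher and 7 lower in KO) and 9 of 102 in injured muscle (8.82%, 5 higher and 4 lower), shares below the 14.2% and 10.3% of all genes. In uninjured muscle the median change of all genes was -0.18, and 36.8% of all genes had an estimate above 0. The list genes were not refitted under other scalings. The genes named from each list are those with the smallest unadjusted p.

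In uninjured muscle 36.8% of all genes had an estimate above 0. Among 21 tested genes of latency and activation, 4 had an unadjusted p below 0.05 there, all lower in KO. The clearest was Itgb6, the beta subunit of an integrin that releases active Tgfb1 from its latent complex. It measured 33.6, 22.3 and 33.3 RPM in the uninjured WT libraries and 8.06, 8.58 and 16.0 RPM in the uninjured KO libraries, while the injured libraries had 31.6, 38.1 and 29.6 RPM (WT) and 14.0, 10.6 and 15.8 RPM (KO). All KO libraries lay below all WT libraries in both tables, which is the opposite order to Tgfb1. How many of all genes had every KO below every WT library was not counted. On the log2 scale the changes were -1.41 (SE 0.36, limma adjusted p 0.145) and -1.25 (SE 0.21, limma adjusted p 0.101), and neither passed the test. Fbn1 (fibrillin-1, to whose microfibrils latent complexes attach) was at 38.9 ± 2.75 RPM in KO and 72.6 ± 11.2 RPM in WT (SD, n = 3 each) in uninjured muscle, with a limma adjusted p of 0.186. Mmp9, a gelatinase, was at 4.31 ± 1.17 and 2.21 ± 0.381 RPM (SD, n = 3 each) in WT and KO injured muscle, with a limma adjusted p of 0.403.

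Of 13 other receptors and co-receptors, Cd109, a membrane protein known to bind Tgf-beta and to dampen its signalling, was the only one with an unadjusted p below 0.05, in both tables. It measured 1.13, 0.532 and 0.231 RPM in the uninjured WT libraries and 1.33, 4.57 and 3.16 RPM in the uninjured KO libraries, while the injured libraries had 1.43, 0.449 and 1.57 RPM (WT) and 2.06, 3.49 and 2.29 RPM (KO). All KO libraries lay above all WT libraries in both tables, although uninjured WT replicate 1 and KO replicate 1 were close, at 1.13 and 1.33 RPM. The uninjured WT replicate 2 value lies below the 3-read floor. Counting intervals were not computed for this gene. The log2 changes were 1.25 (limma adjusted p 0.249) and 0.77 (limma adjusted p 0.445). For the activin receptor genes the log2 change was -0.89 (limma adjusted p 0.440) for Acvr2b in uninjured and -0.29 (limma adjusted p 0.661) for Acvr1b in injured muscle.

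Of 20 Smads and regulators, Skil, a repressor of Smad activity, was at 4.48 ± 1.83 RPM in KO and 9.30 ± 3.26 RPM in WT (SD, n = 3 each) in uninjured muscle, with a log2 change of -0.91 (limma adjusted p 0.345), and -0.51 (limma adjusted p 0.540) in injured muscle. Pmepa1, a Tgf-beta-induced inhibitor of Smad signalling, was at 36.6 ± 9.92 RPM in KO and 22.0 ± 3.36 RPM in WT (SD, n = 3 each) in injured muscle, with a log2 change of 0.69 (limma adjusted p 0.425), and 0.44 (limma adjusted p 0.620) in uninjured muscle. The list's median change was 0.08 in uninjured and 0.24 in injured muscle.

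The 25 target genes had estimates in both directions, and none passed the test. In uninjured muscle Tgfbi and Ctgf, both secreted matrix-associated proteins induced by Tgf-beta, were lower in every KO than in every WT library. The share of all genes with that order was not counted. Tgfbi was at 41.8 ± 11.7 and 21.3 ± 6.77 RPM (SD, n = 3 each) and Ctgf at 29.3 ± 7.97 and 15.6 ± 4.58 RPM (SD, n = 3 each) in WT and KO, with limma adjusted p values of 0.260 and 0.287. In injured muscle Cdkn1a, a cell cycle inhibitor, and Acta2, smooth muscle actin, were higher in every KO than in every WT library. Cdkn1a was at 14.7 ± 2.92 and 26.0 ± 0.881 RPM (SD, n = 3 each) and Acta2 at 41.7 ± 12.6 and 89.1 ± 30.1 RPM (SD, n = 3 each), with limma adjusted p values of 0.251 and 0.333. Ctgf was lower in every KO than in every WT library in injured muscle too, with a log2 change of -0.50 (limma adjusted p 0.418). Tgfbi overlapped there, with a log2 change of -0.17 (limma adjusted p 0.834). The median change of the list was -0.23 in uninjured muscle, beside -0.18 for all genes, and 0.04 in injured muscle, beside 0.01.

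In the list of 23 tested cross-linking and assembly genes, to which Lox belongs by function, 0 had an unadjusted p below 0.05 in uninjured and 1 in injured muscle. That gene was Serpinh1, the collagen chaperone Hsp47, at 73.4 ± 1.02 RPM in KO and 109.7 ± 24.98 RPM in WT (SD, n = 3 each), a log2 change of -0.55 (limma adjusted p 0.415), and of -0.72 (limma adjusted p 0.356) in uninjured muscle. Plod2, a collagen lysyl hydroxylase, had a log2 estimate of -0.85 in uninjured muscle (limma adjusted p 0.375) and Eln (elastin) one of 0.73 in injured muscle (limma adjusted p 0.515), and neither passed the test. The list's medians were -0.04 and 0.04.

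**Figure D4:**
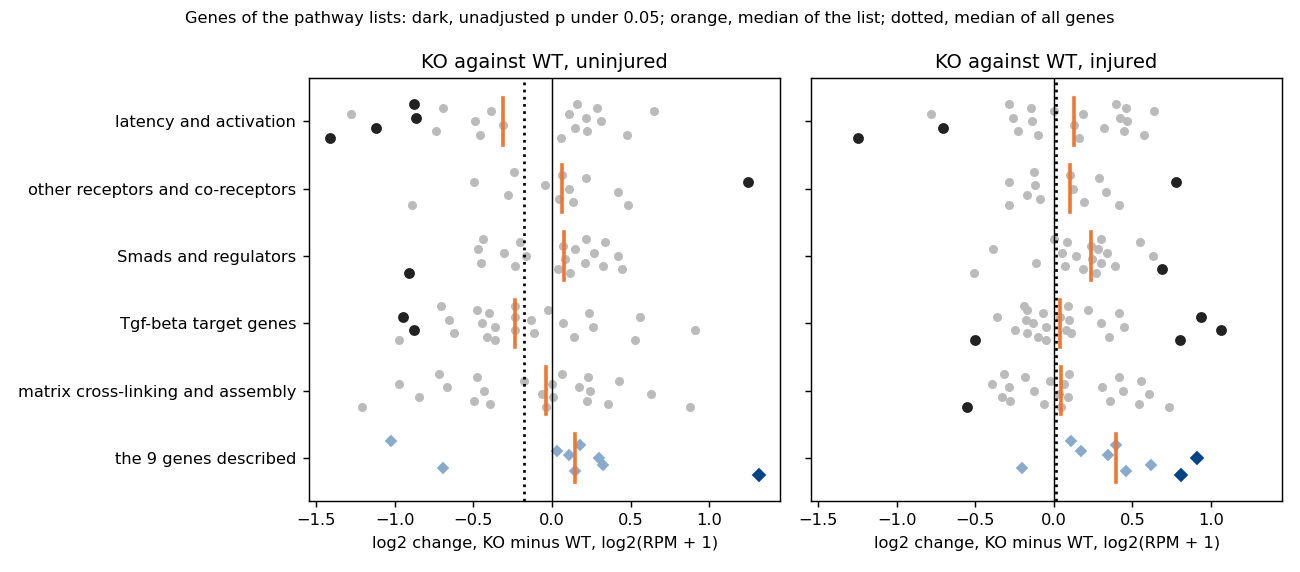
Log2 change, KO minus WT, on the log2(RPM + 1) scale (horizontal axes) for the tested genes of the 5 pathway lists and for the 9 genes described (vertical axis), in uninjured (left) and injured (right) muscle, with 1 point per gene, dark where the unadjusted p is below 0.05, orange lines at list medians and a dotted line at the median of all genes. The medians of the 9 genes, 0.14 and 0.39, lie to the right of the dotted lines, and the point farthest left in each panel is Itgb6.

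Levels in whole muscle do not separate fewer cells of a type from less RNA per cell, so 11 lists of cell type markers were examined beside the 9 genes. None of their markers passed a limma adjusted p of 0.05 in any of the 5 comparisons. In uninjured muscle the sums of 5 of the 11 lists did not overlap between the 3 KO and the 3 WT libraries. Sums of other gene lists were not examined, so this count has no background beside it. Over all genes, 36.8% of estimates in uninjured muscle were above 0, and 14.2% had an unadjusted p below 0.05. The 8 macrophage markers, cells that produce Tgfb1, summed to 113 to 218 RPM in WT and to 65.3 to 103 RPM in KO, with all 8 estimates below 0, 4 of them with an unadjusted p below 0.05, and a median log2 change of -0.91. Higher in KO were the sums of the lists for muscle fibre (158857 to 170033 against 110108 to 121837 RPM), smooth muscle and pericyte (5740 to 5816 against 2936 to 3478 RPM, mostly Des, which muscle fibres also express), satellite cell (30.1 to 40.3 against 21.8 to 29.8 RPM) and regenerating fibre (1267 to 2345 against 668 to 1040 RPM). The satellite cell sums were separated by the narrowest margin, 29.8 RPM in WT against 30.1 RPM in KO. Single markers did not all follow the sums of their lists. Estimates were above 0 for 9 of 9 muscle fibre and 5 of 5 tested regenerating fibre markers, with medians of 0.58 and 0.43. They were above 0 for only 5 of 8 smooth muscle and pericyte and 2 of 4 satellite cell markers, with medians of 0.035 and -0.13. The sums of the other 6 lists overlapped (fibroblast and fibro-adipogenic progenitor, tenocyte, endothelial, adipocyte, Schwann cell and erythroid). In injured muscle the macrophage sums were the only ones of the 11 without overlap, with 139 to 189 RPM in WT and 115 to 123 RPM in KO, all 8 estimates below 0, 3 of them with an unadjusted p below 0.05, and a median of -0.43. Over all genes, 52% of estimates in injured muscle were above 0, and 10.3% had an unadjusted p below 0.05.

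Fibroblasts and fibro-adipogenic progenitors are main producers of matrix, and 8 of their 9 markers had estimates below 0 in each table. Their sums were 1368 to 2475 RPM in WT and 1078 to 1695 RPM in KO uninjured muscle, with a median log2 change of -0.67 and 3 unadjusted p values below 0.05. There 4 markers were lower in every KO than in every WT library, an order whose share among all genes was not counted. In injured muscle the sums were 2017 to 2327 RPM in WT and 1760 to 2057 RPM in KO, the median was -0.21, and 1 marker had an unadjusted p below 0.05. The 6 adipocyte markers had 6 estimates above 0 in each table. Their sums were 381 to 599 RPM in WT and 561 to 1242 RPM in KO uninjured muscle, with a median of 1.49 and 4 unadjusted p values below 0.05, and 59.6 to 404 RPM in WT and 280.2 to 1209 RPM in KO injured muscle, with a median of 1.79 and 3 such values. Over all genes, 36.8% of estimates were above 0 in uninjured and 52% in injured muscle, with medians of -0.18 and 0.01. Unadjusted p values below 0.05 were found for 14.2% and 10.3% of all genes. None of the markers of the 11 lists was at 0 in every library, and the part of these lists in the levels of the 9 genes was not tested.

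The genes most like each of the 9 were taken as those with the smallest root mean square difference of standardized log2(RPM + 1) values over the 12 libraries, among 13337 genes. Nearest to Tgfb1 were Lmod1 (0.236), Hsdl1 (0.266) and Nim1k (0.289), beside a median of 1.34 over all genes. Nearest to Tgfb2 were Fam103a1 (0.144), Cbx3 and Oat, nearest to Tgfb3 were Traf3 (0.215), Zfp652 and Zcchc24, and nearest to Tgfbr1 were Fyttd1 (0.153), Celf1 and Aggf1. For Tgfbr2 they were Purb (0.244), Lrrn1 and Hnrnpa3, and for Tgfbr3 Ogn (0.196), Mga and Pip4k2a. Ltbp4 was nearest to Prrg3 (0.293), Ephb4 and Tie1, Postn to Ccdc80 (0.332), Pdlim1 and Dync1li2, and Lox to Mansc1 (0.369), 9030407P20Rik and Lipa. Among the 9 themselves the closest pair was Tgfb2 and Tgfbr2, at 0.461, and the farthest from Tgfb1 was Tgfbr3, at 1.54. These values share the libraries and their depth and are given as a description.

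Flag-Myf6 peaks lay near some of the 9 genes and not near Tgfb1. The deposited list holds 12898 peaks with a median fold enrichment of 7.68, from 1 ChIP library and 1 control, so binding has no replicate check. Coordinates are as the list gives them. They were set against RefSeq starts of GRCm38.p6, since the submitters' processing notes list mm10 and GRCm38.p5 and the list itself names no build. Starts were listed for Tgfb1, Tgfb2, Tgfbr1, Tgfbr2, Ltbp4 and Postn. Of these 6 genes 1, Tgfb2, had a peak within 10 kb of a listed start, against 18.3% of 10004 tested genes with an entry. Of the 9 genes 4 (Tgfb2, Tgfbr1, Tgfbr2 and Ltbp4) had a peak within the gene body, against 24.5% of 12748 genes. With so few genes, neither count sets them apart from other genes.

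The strongest peaks were at Tgfb2. One, chr1:186715326-186715746, had an 18.5-fold enrichment, rank 349 of the list, and lay 9337 bases upstream of the listed start. Another, chr1:186749267-186749475, had a 17.6-fold enrichment and lay 43278 bases upstream. Within the Tgfb2 gene were 2 further peaks of 8.70-fold and 5.41-fold, and 2 more lay beyond its end, at 10.6-fold and 6.45-fold. Tgfb2 was the ligand with the smallest estimated difference between KO and WT in both tables.

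Tgfbr2 held 4 peaks within the gene, of which the strongest, chr9:116138760-116138985, was enriched 13.9-fold. Ltbp4 held 2 peaks within the gene, at 7.0-fold and 5.48-fold, and Tgfbr1 1 within it at 7.92-fold and 1 beside it at 5.16-fold, all but the 7.92-fold peak below the list's median. Tgfb3 had 4 peaks within 50 kb, none inside the gene and none above 6.76-fold. No peak lay within 50 kb of Tgfb1, Tgfbr3, Postn or Lox, with the nearest at 50103, 121767, 512449 and 84138 bases from the gene. The peaks come from myotubes in culture and the RNA from whole muscle, so the values stand side by side without a test.

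**Figure D5:**
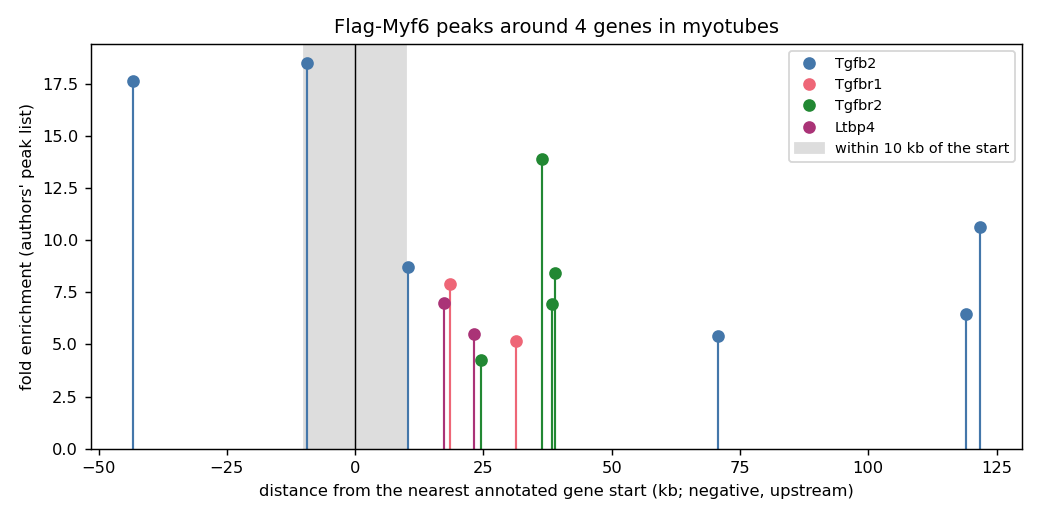
Fold enrichment in the authors' peak list (vertical axis, from 0) against distance in kb from the nearest listed gene start (horizontal axis, negative for upstream, gray for within 10 kb) for the Flag-Myf6 peaks within 50 kb of Tgfb2, Tgfbr1, Tgfbr2 and Ltbp4, the genes with a listed start and such a peak. The Tgfb2 peak at 18.5-fold is the single one inside the gray band.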

How the data were processed

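RNA was extracted with Trizol and sequenced from TruSeq RNA v2 libraries, per the labels' protocols. The submitters' processing notes list HISAT2 2.1.0, SAMtools, featureCounts, DESeq2, Bowtie 1.1.0 and MACS2 2.1.0.20140616, with the builds mm10 and GRCm38.p5, without roles. The authors deposited RPM values per gene and library, scaled to 1000000 in each library, with their log2 fold change, p-value and q-value, in 1 table for uninjured and 1 for injured muscle. Rows with an identifier but no gene name (203 of 49585) were kept. Peaks were called by the authors with a q-value cutoff of 0.05, 1 read kept per position and reads extended to 127 bases, per the file headers, and the deposited list gives a pileup signal, a fold enrichment ratio and −log10 of p and q.

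The members and gene lists were chosen with earlier results of these data known. Tests were limma 3.58.1 (R 4.3.3, lmFit and eBayes with trend) on log2(RPM + 1), two-sided, for genes reaching 1 RPM in 3 or more fitted libraries, adjusted by Benjamini-Hochberg over all genes tested. KO against WT used its own 6 libraries, and injury and the interaction all 12. A change on this scale understates that of low genes. All 9 members passed the filter in every comparison. Whole reads were recovered from the RPM steps (100% of testable values whole within 0.1 read) for edgeR 4.0.16 and DESeq2 1.42.0. Scripts were tested on simulated data. The named list genes are, per list and table, the 2 with the smallest unadjusted p, and the 3 most similar genes per member. Recovered totals were 1880087 to 49392472 reads, and no 2 libraries were alike enough to be duplicates (lowest mean chi-square per gene 11.1). The shared numbers were not taken to pair libraries, since not every same-numbered pair deviated together. Alternatives were other pseudocounts, filters and scalings, edgeR, DESeq2, no trend, a fit of all 12 libraries, a replicate block, each library left out, and the authors' values; for peaks, a 50 kb window, at least 10-fold enrichment and overlap with the gene.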

Additional observations from a re-analysis of the deposited data

How the results depend on the processing

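The count of members passing the test in KO against WT was 0 under all alternatives in both tables except 1 (Tgfb1) with DESeq2 in uninjured muscle and a range of 0 to 3 when injured libraries were left out in turn. It was 0 throughout for injury and the interaction. With 50 kb in place of 10 kb 4 members had a peak near a start (51.9% of all genes), and 4 by overlap with the gene. With a replicate block 0 members passed in each of the 5 comparisons. The block was on replicate number for KO against WT and on label number for injury and the interaction. WT and KO libraries share no label number. Those of the same replicate number correlated at 0.037, 0.26 and 0.37 in uninjured and at -0.45, -0.60 and -0.30 in injured muscle. Uninjured and injured libraries of the same label number correlated at 0.28, -0.23 and 0.016 in WT and at 0.024, 0.50 and 0.63 in KO. Not every uninjured library correlated best with the injured library of its own label number, so the numbers are not shown to pair.

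Directions reversed without reaching the threshold in at least 1 alternative for 4 of 9 members in uninjured and 2 of 9 in injured muscle, 7 of 9 for injury in WT, 5 of 9 for injury in KO and 6 of 9 in the interaction. For injury, Tgfbr1 and Tgfbr3 in WT reversed in 7 of 22 alternatives each, and Tgfb3 in KO in 5. Scaling to reads outside mitochondrial genes gave -0.12 for Tgfb2 and -0.036 for Tgfbr2 in uninjured muscle. The injury change of Tgfbr1 in WT was -0.057 with upper quartile, -0.047 with TMM and -0.078 with non-mitochondrial scaling, -0.028 with edgeR and -0.050 with DESeq2. Leaving out 1 library gave these ranges in uninjured muscle: -0.31 to 0.38 for Tgfb2, -0.39 to 0.55 for Tgfbr2, -0.32 to 0.99 for Postn, -0.12 to 0.50 for Lox. In injured muscle they were -0.067 to 0.48 for Tgfb2 and -0.061 to 0.37 for Tgfbr1. For the injury changes described above they were -0.10 to 0.15 for Tgfbr1 in WT and -0.16 to 0.13 for Tgfb1 in KO. The cause was not tested. Upper quartile and TMM scaling moved the median of all genes in uninjured muscle from -0.18 to 0.042 and -0.016. Tgfb1 stayed above 0 in all 18 alternatives of each table. Depth limits Tgfb1 most: in the smallest library 3 reads are 1.60 RPM, above its value there.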
